A study of Bos taurus with 6 samples.

Results

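The enzymes that build triglyceride were followed in longissimus dorsi, a large loin muscle that runs along the spine, in cattle of 2 ages. The genes were ACSL1, GPAM, AGPAT2, LPIN1, DGAT1, DGAT2 and MOGAT1, chosen by name as steps of the pathway, with earlier results of these data known. Each was represented by 1 probe set with a single gene symbol, so that 7 of the 24128 probe sets of the bovine Affymetrix array, and 7 of the 9155 genes named on it, were described. The animals were 18 male Chinese Red Steppe cattle kept on a standard diet, 9 of them 1 month old and 9 of them 24 months old. Each array carried the mixed total RNA of 3 bulls, which gave n = 3 pools per age. They are named here by their numbers in the labels, pools 1 to 3 of the calves and pools 2 to 4 of the older bulls. The ages were compared on whole muscle, without separation of fibres from fat cells, and pooling leaves the spread between single bulls unmeasured.

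Triglyceride is assembled from activated fatty acids and glycerol phosphate. An acyl-CoA synthetase activates the fatty acid, a glycerol phosphate acyltransferase attaches the first chain and an acylglycerol phosphate acyltransferase the next one. A phosphatidate phosphatase of the lipin family then removes the phosphate, and a diacylglycerol acyltransferase adds the last chain. Monoacylglycerol acyltransferase supplies diacylglycerol by a separate route, best known from the intestine. In muscle the product is stored in droplets inside fibres and in fat cells between them, the marbling of beef. In these samples more cells of a type and more RNA per cell cannot be told apart.

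The muscle label was borne out by the arrays: all 10 muscle fibre markers that the array names, among them ACTA1, CKM and MYH7, were called present on all 6 arrays. Present calls covered 48.9% to 52.5% of probe sets at 1 month and 54.8% to 56.4% at 24 months. The log2 ratio of 3′ to 5′ actin signal, a measure of RNA quality that rises as RNA is degraded, ran from 0.46 to 0.85 in the calf pools and from 0.22 to 0.26 in the older ones, without overlap (two-sided exact permutation test, p = 0.1, the smallest p that 3 against 3 arrays allow). Among the 1-month arrays 2 stood apart in markers. Pool 1 had a summed fibroblast marker intensity of 23869, against 6823 and 8235 in the other pools of its age, and pool 3 had a blood cell and macrophage sum of 995, against 3877 and 3119. The low sum of pool 3 lay mainly in 1 gene, the haemoglobin chain HBB, which read 2403, 2405 and 132 in 1-month pools 1, 2 and 3. Between the ages the summed muscle fibre markers ran from 62790 to 65237 in calves and from 82889 to 84254 in older bulls, and 4 of 10 tested markers rose and 0 fell. The endothelial sum ran from 1236 to 1305 and from 838 to 920, with 2 of 4 tested markers called as falls. The blood cell and macrophage sum was 641 to 679 in the older pools, with 4 of 7 tested markers called as falls. None of these 3 sums overlapped between the ages. The part of these differences in the results below was not tested.

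GPAM, AGPAT2 and DGAT2, 3 of the 7 genes, were higher in the older bulls, by 2.10-fold to 2.77-fold. LPIN1 and ACSL1 did not pass the test, and DGAT1 and MOGAT1 were not tested because they were called present on 0 and 1 of the 6 arrays, below the minimum of 3. No tested member fell by limma, and none had a lower level at an unadjusted p under 0.05. Changes were fitted with limma on log2(intensity + 16) over 13204 tested probe sets, of which 19.0% were called at an adjusted p under 0.05, 14.0% as rises and 4.99% as falls. AGPAT2, DGAT2 and LPIN1 reached 3 present calls through their 24-month arrays, so the count of 3 among the 5 tested is a description of these genes and not support for a shift of the pathway. The count fell to 1, AGPAT2, without 1-month pool 2 and to 1 without each of 24-month pools 2, 3 and 4. Without 1-month pool 3 it was 3, but ACSL1 was called (adjusted p = 0.0147) and DGAT2 was not (0.0600). The same 3 genes were called only in the fit without 1-month pool 1. Without the filter on detection calls, 3 of all 7 genes were called as rises, beside 9.69% of 24016 probe sets. In the text that follows, changes are 24 months minus 1 month on the log2 scale, and the value after ± is the standard error unless marked SD.

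**Figure D1:**
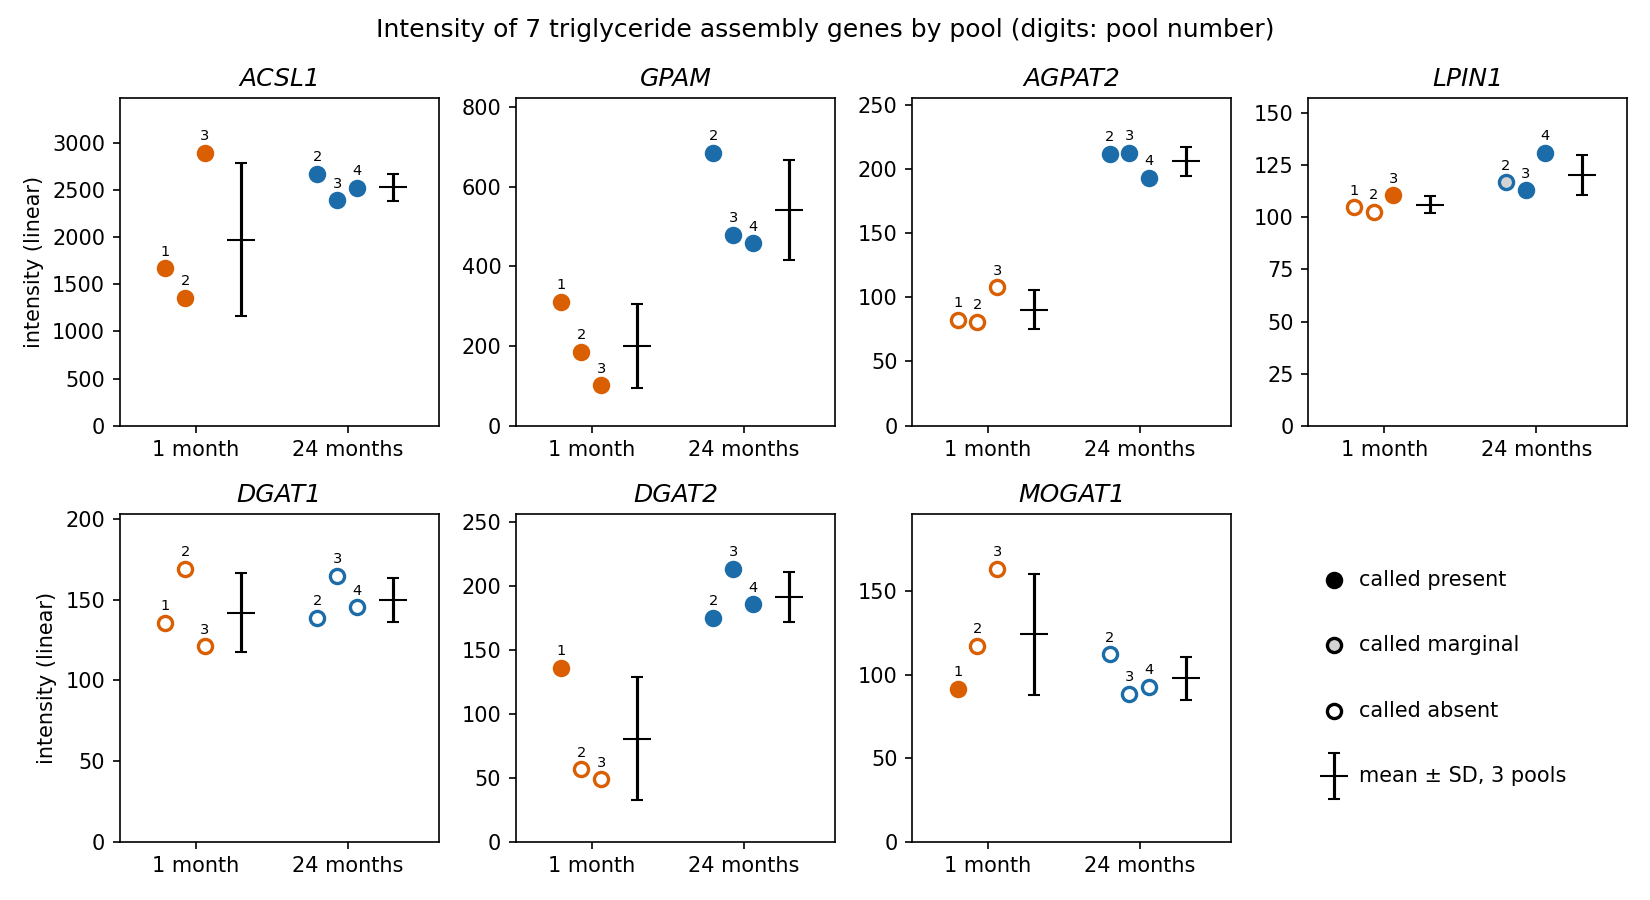
Linear intensity (vertical axes, each starting at 0) of the 7 genes in the 3 pools of each age, with the pool number beside each point, the fill showing the detection call, and bars giving the mean ± SD. The 24-month pools of GPAM, AGPAT2, DGAT2 and LPIN1 all lie above the 1-month pools, a pattern shown by 27.2% of tested probe sets. ACSL1, DGAT1 and MOGAT1 overlap between the ages.

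ACSL1 encodes the long-chain acyl-CoA synthetase that prepares fatty acids for both storage and oxidation. Its intensity was 1671, 1358 and 2898 in 1-month pools 1, 2 and 3, and 2675, 2390 and 2525 in 24-month pools 2, 3 and 4, with a present call on every array. The ages overlapped through 1-month pool 3, which was the highest of all 6. The change was 0.43 ± 0.27 (95% interval -0.21 to 1.07, adjusted p = 0.298) and did not pass. Without 1-month pool 3 ACSL1 rose by 0.74 ± 0.14 (adjusted p = 0.0147), and it was the one pool whose omission brought a call. Without 1-month pool 2 the estimate was 0.20 (adjusted p = 0.594). With the actin ratio as a covariate the estimate turned to -0.47 ± 0.42 (adjusted p = 0.524).

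GPAM encodes the mitochondrial glycerol phosphate acyltransferase, which commits glycerol phosphate to glycerolipid synthesis. Its intensity was 311, 185 and 102 in 1-month pools 1, 2 and 3 and 686, 480 and 458 in 24-month pools 2, 3 and 4, with present calls throughout. The lowest 24-month pool was 1.47 times the highest 1-month pool. GPAM rose by 1.47 ± 0.37, that is 2.77-fold (95% interval 1.52 to 5.06, adjusted p = 0.0347), and 98.0% of the tested probe sets had a smaller signed change. The pools of 1 month differed 3.06-fold among themselves. The call was lost without 1-month pool 2 (adjusted p = 0.0718) and without 24-month pool 2, 3 or 4 (0.128, 0.105 and 0.0969), with estimates from 1.29 to 1.58 in these 4 fits.

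AGPAT2 encodes the acylglycerol phosphate acyltransferase of the endoplasmic reticulum whose loss in humans causes a congenital lack of fat tissue. Its intensity was 82.4, 80.7 and 108 at 1 month, with no present call (deposited detection p of 0.334, 0.219 and 0.112), and 212, 213 and 193 at 24 months, all called present. The 3 older pools lay within 1.10-fold of each other. The calf level was thus not well above background. AGPAT2 rose by 1.07 ± 0.14 (95% interval 0.73 to 1.41, adjusted p = 0.00628), a fitted fold of 2.10 with a 95% interval from 1.66 to 2.65. It was the called member whose call held whichever pool was left out, with adjusted p from 0.00264 to 0.0416 and estimates from 1.01 to 1.18. With the actin ratio as a covariate it gave 0.69 ± 0.24 and was not called (adjusted p = 0.132). Passing the filter through the older pools alone goes with a rise: of 436 tested probe sets with no present call at 1 month, 173 (39.7%) were called as rises.

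LPIN1 encodes lipin 1, the phosphatidate phosphatase of muscle and fat, which also acts as a transcriptional coactivator. Its intensity was 105, 103 and 111 at 1 month, where only pool 3 was called present (deposited detection p of 0.0142), and 117, 113 and 131 at 24 months, with present calls in pools 3 and 4 and a marginal call in pool 2. The pools of the ages did not overlap, a pattern that 27.2% of tested probe sets showed in this direction. The change of 0.16 ± 0.12 did not pass (95% interval -0.13 to 0.44, adjusted p = 0.382), and the interval holds folds from 0.917 to 1.36. The call was not gained in any of the 6 fits with 1 pool left out.

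The last step is served by a pair of unrelated enzymes, DGAT1 and DGAT2. DGAT2, which is tied to newly made fatty acids and to lipid droplets, had intensities of 136, 56.9 and 48.9 at 1 month, with a present call in pool 1 only (deposited detection p of 0.00415), and of 175, 213 and 186 at 24 months, all called present. All older pools lay above all younger ones, and 1-month pool 1 lay nearest to them. DGAT2 rose by 1.21 ± 0.32, that is 2.31-fold (95% interval 1.37 to 3.88, adjusted p = 0.0405). Its level in 1-month pools 2 and 3, both called absent, was not well above background. Of the 6 fits with 1 pool left out only the one without 1-month pool 1 kept the call, with 1.59 ± 0.14 (adjusted p = 0.00548). In the other fits, without 1-month pool 2 or 3 or 24-month pool 2, 3 or 4, the adjusted p ran from 0.0600 to 0.144 and the estimates from 0.97 to 1.26.

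DGAT1, a multispanning enzyme of the endoplasmic reticulum that also takes part in milk fat synthesis, was called absent on all 6 arrays. Its intensity was 136, 169 and 121 at 1 month and 139, 165 and 145 at 24 months, and the ages overlapped. No fold is given, since the probe set was not well above background at either age. MOGAT1, a relative of DGAT2 that makes diacylglycerol from monoacylglycerol, was called present on 1 array, that of 1-month pool 1, at the lowest of its 3 intensities of that age. Those intensities were 91.7, 117 and 163, and they were 112, 88.6 and 92.7 at 24 months, so that the ages overlapped. The difference of MOGAT1 did not pass in the fit without the filter on detection calls (-0.27 ± 0.20, 95% interval -0.74 to 0.19, adjusted p = 0.379).

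**Figure D2:**
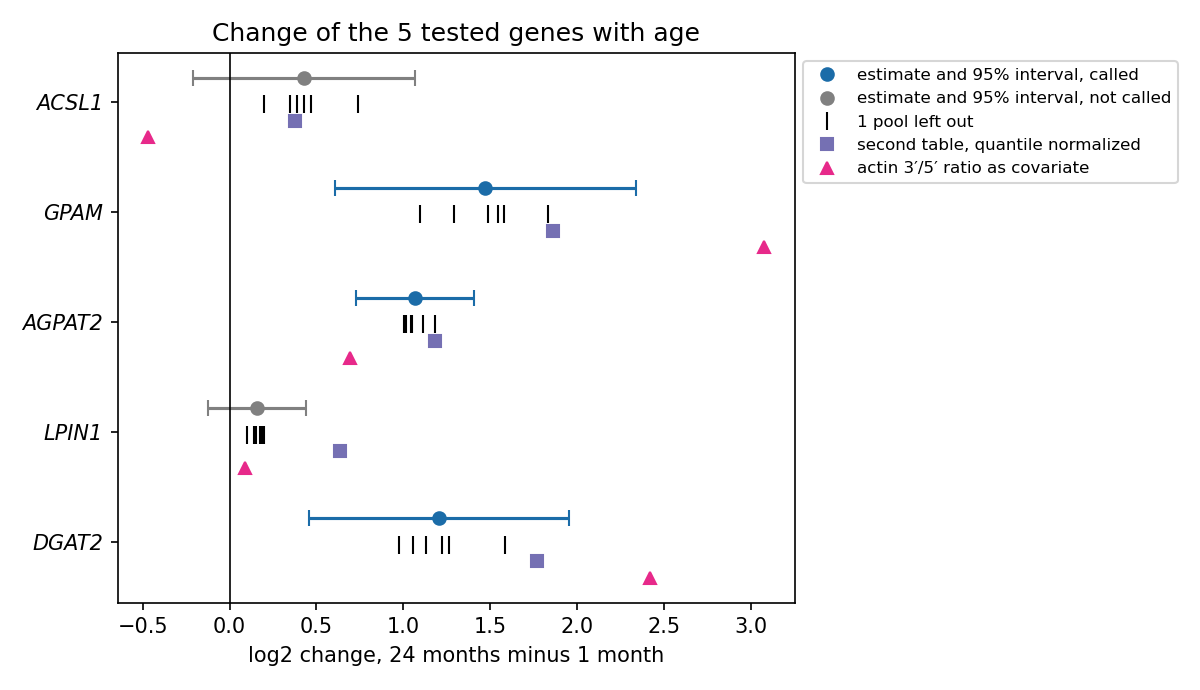
Log2 change with age (horizontal axis) of the 5 tested genes: points with 95% intervals are the fit to all 6 pools, ticks the 6 fits with 1 pool left out, squares the second deposited table and triangles the fit with the actin ratio as a covariate. The ticks of AGPAT2 span 1.01 to 1.18 and those of GPAM 1.10 to 1.83, and the triangles of GPAM and DGAT2 lie at 3.08 and 2.42.

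The 3 called genes differed in their estimates with the actin ratio as a covariate. They were also read in the second deposited table of the same arrays, whose scale is unknown. With the actin ratio as a covariate GPAM gave 3.08 ± 0.34 (adjusted p = 0.0133) and DGAT2 2.42 ± 0.42 (0.0305), larger than without it, while AGPAT2 gave the smaller value above. The covariate is confounded with age in these pools. In the second table GPAM read 115, 73.2 and 33.5 at 1 month and 392, 216 and 248 at 24 months. DGAT2 read 51.0, 0.967 and 11.1, then 104, 76.8 and 77.9, and AGPAT2 read 31.9, 30.4 and 66.5, then 126, 98.7 and 100.2. The older pools lay above the younger ones there for each of the 3 genes, which were picked by their calls on these arrays. The share of all probe sets with this pattern in the second table was not counted. After quantile normalization of that table their changes were 1.86 ± 0.33, 1.77 ± 0.42 and 1.18 ± 0.26 for GPAM, DGAT2 and AGPAT2, and all were called (adjusted p = 0.0140, 0.0334 and 0.0268). These are the same hybridisations and so no further replicates.

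The spread between the calf pools was wide for part of the pathway. The log2 SD of GPAM was 0.74 at 1 month and 0.31 at 24 months, and that of DGAT2 0.67 and 0.14. ACSL1 had 0.56 and 0.08, and AGPAT2 0.20 and 0.07. LPIN1 went the other way, with 0.05 and 0.10. Over all tested probe sets the median SD was 0.26 at 1 month and 0.12 at 24 months, and 80.6% had the larger SD at 1 month, so the direction of this difference was shared by most of the array. At 1 month the SDs of GPAM, DGAT2 and ACSL1 were larger than those of 93.1%, 90.8% and 86.3% of tested probe sets. GPAM and DGAT2 were both highest in pool 1 and lowest in pool 3, whereas ACSL1 and AGPAT2 were highest in pool 3.

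Likeness to GPAM, the called member with the largest change, was measured over the 6 pools as the root mean square difference of log2 values, each probe set centred on its own mean. Among 8217 tested probe sets with 1 gene symbol the most alike were those of S100A2, a calcium-binding protein (0.21), TLE1, a transcriptional corepressor (0.22), THRSP, a nuclear protein tied to fatty acid synthesis (0.22), BOLA-DMB, a class II peptide-loading chain (0.24), and RNF130, a RING finger protein (0.25). THRSP read 73.2, 24.8 and 18.7 at 1 month and 156, 140 and 89.8 at 24 months, with the same order of the calf pools as GPAM. DGAT2 came 21st in likeness to GPAM (0.32), AGPAT2 came 572nd (0.59), and LPIN1 and ACSL1 were farther away (0.82 and 0.88). These are descriptions of 6 pools in 2 age groups and carry no test.

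Around the 7 enzymes, 57 tested genes of 7 lists of neighbouring steps were read on their brightest tested probe set. Of these 9 rose and 0 fell by limma, with 7 lower at an unadjusted p under 0.05. This is a share of 15.8% rises beside 11.3% of all 6423 genes read in the same way, which also had 5.73% falls. The median change was 0.10 over the 57 genes and 0.03 over all genes. The share of rises is close to that of the array. The 9 rises became 13 without 1-month pool 1, 6 without 1-month pool 2, and 2, 1 and 1 without 24-month pools 2, 3 and 4, and the falls became 2 and 5 without 1-month pools 1 and 2.

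Other acyltransferases and synthetases of the pathway had 2 rises among 7 tested of 10 named on the array. GPAT4, the glycerol phosphate acyltransferase of the endoplasmic reticulum, read 98.7, 119 and 145 at 1 month and 211, 297 and 234 at 24 months. Present calls were made on 1 of the 3 calf arrays and on all 3 older ones, so it passed the filter through the older pools. GPAT4 rose by 0.95 ± 0.18 (adjusted p = 0.0174), a call lost without 24-month pool 2, 3 or 4 (0.0512, 0.0746 and 0.0723). The other probe set of GPAT4 was called present on 2 arrays and was not tested. AGPAT5, another acylglycerol phosphate acyltransferase, rose by 1.05 ± 0.20 on its brightest probe set (0.0173), and 4 of its 5 tested probe sets rose, with changes of 0.57 to 1.22 over the 5. The call on the brightest was lost without 24-month pool 3 or 4 (0.0700 and 0.0740). LPCAT3, an acyltransferase of membrane phospholipids, gave 0.59 ± 0.18 and did not pass (0.0647), but was called without 1-month pool 3 (0.69, 0.0395). GPAT3, named after its values were seen as the remaining glycerol phosphate acyltransferase on the array, gave -1.61 ± 0.63 (0.119), with 299, 75.1 and 587 in the calf pools and 52.7 to 92.8 in the older ones. In the second deposited table GPAT4 and AGPAT5 kept their direction and were not called (0.0561 and 0.0563).

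Of 7 genes that handle phosphatidate and diacylglycerol, DGKD, a diacylglycerol kinase, rose by 0.49 ± 0.14 (adjusted p = 0.0492). This call was lost in most other fits, among them those without 1-month pool 2 or 3 or any of the 24-month pools (0.0669 to 0.180), and the sign turned in the second table (-0.36 ± 0.21). PLPP1, a lipid phosphate phosphatase, gave 0.60 ± 0.20 (0.0803), with a call without 1-month pool 1 (0.78, 0.0302), and its relative PLPP2 gave -0.27 ± 0.15 (0.243) with every calf array below a present call. The supply of glycerol phosphate had 1 rise among 8 tested genes. GPD1, the cytosolic glycerol phosphate dehydrogenase, read 2778, 2898 and 2057 in calves and 4582, 5407 and 4576 in older bulls, and rose by 0.92 ± 0.17 (0.0151). That call was lost without 24-month pool 2, 3 or 4 (0.0599, 0.0739 and 0.0655). PCK1 and PCK2, the cytosolic and mitochondrial phosphoenolpyruvate carboxykinases, gave 0.65 ± 0.42 (0.300) and -0.64 ± 0.20 (0.0684). Without 1-month pool 1 PCK1 was called at 1.16 (0.0126), and without 1-month pool 2 PCK2 was called at -0.79 (0.0424).

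**Figure D3:**
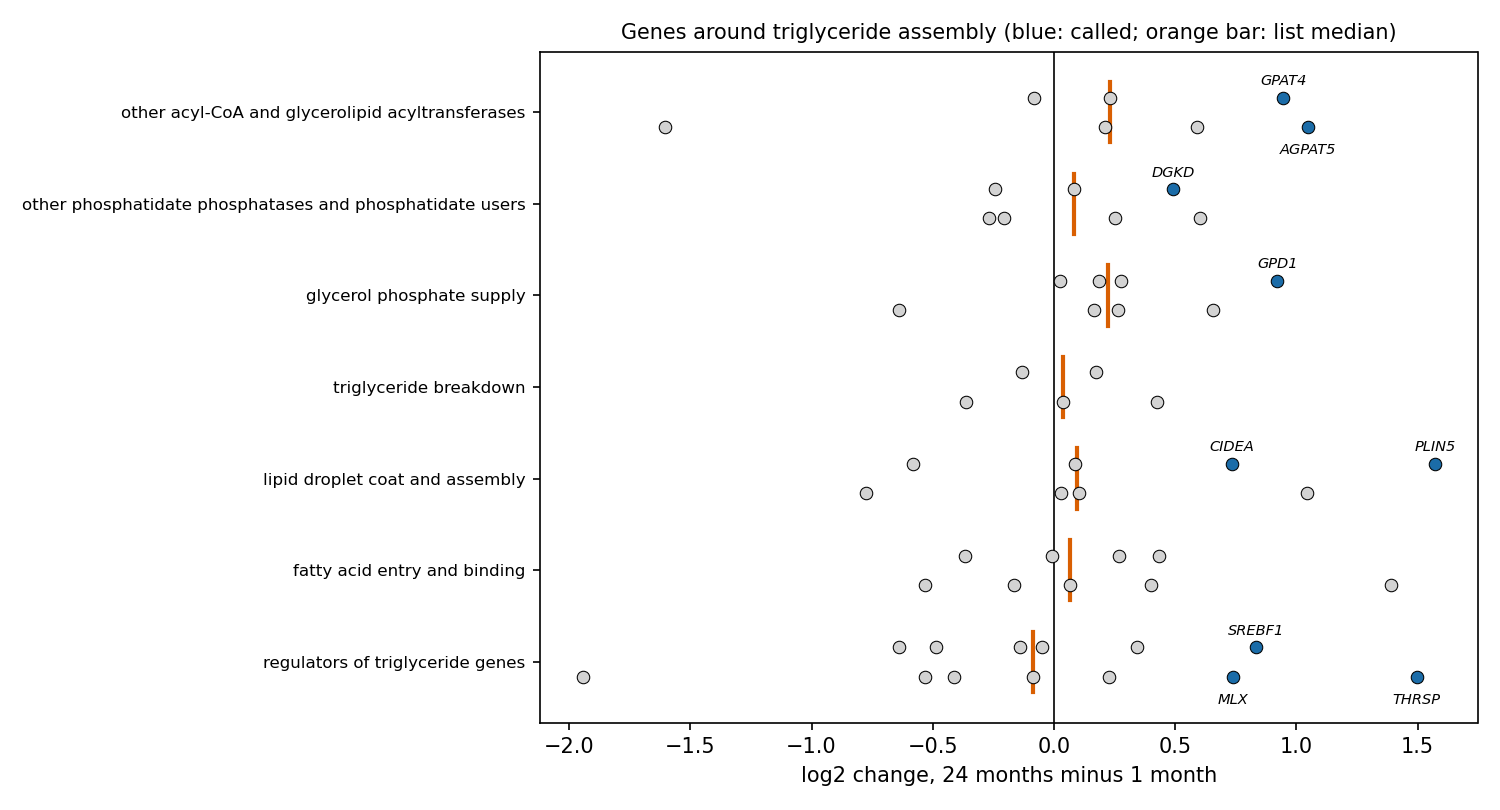
Log2 change with age (horizontal axis) of the 57 tested genes in 7 lists around triglyceride assembly, 1 point per gene on its brightest tested probe set, blue where called, with an orange bar at the list's median. The list medians lie between -0.09 and 0.23, and all 9 called genes lie to the right of 0.

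The genes that break triglyceride down had 0 calls among 5 tested by limma, and 0 at an unadjusted p under 0.05. PNPLA2, the lipase that opens triglyceride hydrolysis, gave 0.42 ± 0.59 (adjusted p = 0.643), with 166, 212 and 943 in the calf pools and 555, 383 and 406 in the older ones. Without 1-month pool 3 it rose by 1.17 ± 0.20 (0.00999), and without 1-month pool 1 the estimate was -0.028. LIPE, the hormone-sensitive lipase, gave -0.36 ± 0.18 (0.194), and G0S2, an inhibitor of PNPLA2, gave -0.13 ± 0.18 (0.640). The median of the 5 was 0.04. Pool 3 of the calves was again the high one for PNPLA2, as it was for ACSL1.

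On the lipid droplet 2 of 8 tested genes rose. PLIN5, the droplet coat protein of oxidative tissues, read 81.1, 81.2 and 109 at 1 month and 291, 371 and 244 at 24 months, and rose by 1.57 ± 0.19 (adjusted p = 0.0050). This call held whichever pool was left out (up to 0.0316), and it was lost with the actin covariate (1.12, 0.102). CIDEA, a droplet fusion protein, was called present in the older pools alone and rose by 0.73 ± 0.14 (95% interval 0.41 to 1.06, 0.0147), a call lost without 24-month pool 2, 3 or 4 (0.0695, 0.0757 and 0.0597). CAV1, the caveolin of fat cell and vessel membranes, gave -0.58 ± 0.21 (0.0917) on its brightest probe set. That probe set was called as a fall without 1-month pool 2 (-0.79, 0.0275) and with quantile normalization (-0.74, 0.0318). The other tested probe set of CAV1 went the opposite way, at 0.77 ± 0.42, and did not pass (0.232).

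Fatty acid entry and binding had 0 calls among 9 tested genes by limma, and 1, CD36, at an unadjusted p under 0.05. CD36, the fatty acid translocase, gave -0.53 ± 0.17 (adjusted p = 0.0707), and was called as a fall without 1-month pool 2 (-0.68, 0.0307), with quantile normalization (-0.72, 0.0221) and with median centring (-0.62, 0.0409). The transporters SLC27A1 and SLC27A6 gave 0.27 ± 0.15 (0.227) and 1.39 ± 0.67 (0.184), the latter 0.56 without 1-month pool 2 (0.214). Among 13 tested regulators 3 rose. THRSP rose by 1.50 ± 0.37 (0.0350), SREBF1, a driver of fatty acid synthesis genes, by 0.83 ± 0.21 (0.0385) and MLX, the partner of the carbohydrate-responsive factors, by 0.74 ± 0.14 (0.0150). All 3 calls were lost without each of the 24-month pools (adjusted p from 0.0525 to 0.146), those of THRSP and SREBF1 also without 1-month pool 2 (0.0841 and 0.0529), and that of THRSP also without 1-month pool 3 (0.0527). A second tested probe set of SREBF1 gave 0.41 ± 0.13 and was not called (0.0682). CEBPB, another listed regulator named after its values were seen, was not called on its brightest probe set (0.23 ± 0.40, 0.722). Its other tested probe set rose by 1.61 ± 0.37 (0.0271). In the second table after quantile normalization SREBF1 and MLX were not called (0.0614 and 0.212), while THRSP was (0.0459). The median of the regulators was -0.09.

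Fat cells were read through 13 marker genes on the array, of which GPD1, CIDEA and others also belong to the lists above. Their summed intensity was 6044, 3738 and 3366 in the calf pools and 6387, 7339 and 6049 in the older pools, and 3 to 5 of the 13 were called present per array at 1 month against 8 or 9 at 24 months. The ages did not overlap in this sum, with 1-month pool 1 just below the lowest older pool. Of 8 tested markers 3 rose, CFD, CIDEA and GPD1. The rise of CFD (0.92 ± 0.26, adjusted p = 0.0499) was lost in each fit with 1 pool left out except the one without 1-month pool 1 (0.0728 to 0.174). It was lost in 14 of the 17 alternatives, among them quantile normalization (0.0571) and median centring (0.0529). LEP, RETN and ADRB3 were called present on no array, and ADIPOQ, the adipokine adiponectin, on 2 older arrays and no younger one. GPD1, which muscle fibres also express, made up much of the sum. Without it, a choice made after seeing the data, the sums were 3266, 841 and 1309 in calves and 1805, 1931 and 1473 in older bulls, and the ages overlapped, with 1-month pool 1 the highest of all. The mean of the older pools over that of the calves was 1.50 with GPD1 and 0.962 without it. The latter ratio rested on 1-month pool 1: without that pool, also chosen after seeing the data, it was 1.62, and the ratio with GPD1 was 1.86. In 1-month pool 1 FABP4 made up much of the sum without GPD1. FABP4 read 2021, 68.1 and 408 in the calf pools and 634, 592 and 435 in the older ones, and did not pass (0.43 ± 1.02, adjusted p = 0.793). GPAM and DGAT2 were highest among the calf pools in pool 1 too, while AGPAT2 was highest in pool 3. The part of fat cell RNA in the 3 rises was not tested.

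**Figure D4:**
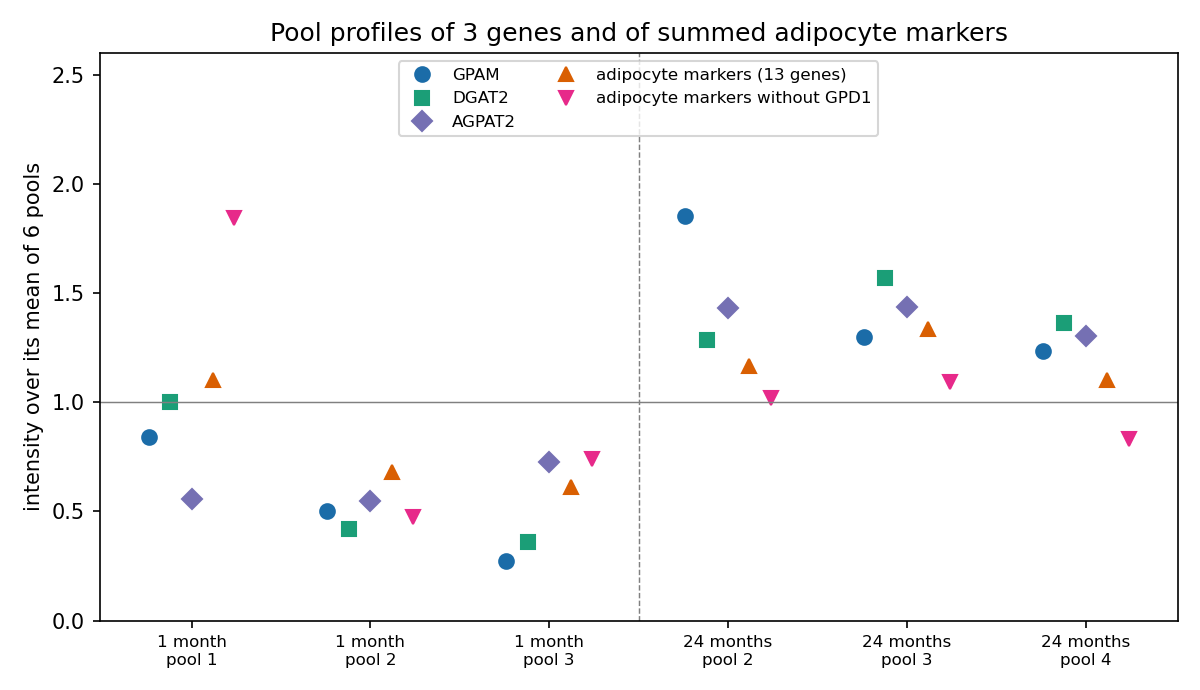
Intensity over its own mean of the 6 pools (vertical axis, from 0) for GPAM, DGAT2, AGPAT2 and the summed adipocyte markers with and without GPD1, pool by pool; the dashed line separates the ages. In 1-month pool 1 the marker sum without GPD1 stands at 1.84 and AGPAT2 at 0.557, and in the 24-month pools all 3 genes stand between 1.24 and 1.85.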

How the data were processed

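Muscle RNA of 18 bulls in 6 pools was measured on 6 arrays. The intensity values, on a linear scale and in a table named for the program dChip, were taken as already normalized across arrays by the authors. For probe model, background and normalization, the sources used here give nothing. It also holds detection calls (present, marginal, absent) and, for the 1-month arrays, detection p-values as deposited by the authors. A second table holds intensity values of the same arrays, deposited with unknown scale; each of its 6 columns resembled its own array most.

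Probe sets were named from the platform annotation (13292 with 1 symbol, 86 with several, 10638 with none, 112 controls). By gene identifier 13263 of the first kind were found in the RefSeq genes of assembly ARS-UCD2.0, and 0 symbols changed. No coordinates were used. Array medians on the log2 scale lay within 0.0308 of each other, so no further normalization was applied. Probe sets called present on at least 3 of 6 arrays were tested with limma 3.58.1 in R 4.3.3 on log2(intensity + 16), which understates the change of dim probe sets, with the ages as groups and no covariates. Two-sided p-values were adjusted by the Benjamini-Hochberg method over all 13204 tested probe sets and called under 0.05. The fit was tested on simulated data. Where no array of an age was called present, the probe set was not well above background there, and the change given is that of the fit.

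The members, gene lists, tests and alternatives were chosen with earlier results of these data known. Named were all members, every called gene and the 3 with the smallest p of each list, and the 5 profiles most like the called member with the largest change. Alternatives were quantile normalization, median centring, offsets of 1 and 50, other filters, a trended robust prior, the actin ratio as a covariate, the second table, the pool number as a block and leaving out each pool. Precision is limited by the number of arrays.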

Additional observations from a re-analysis of the deposited data

How the results depend on the processing

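The 3 rises among the members stood under quantile normalization, median centring, both offsets, both other filters, the trended prior and both readings of the second table. With the actin covariate 2 remained called. With the pool number as a replicate block 1 was called, GPAM (1.94 ± 0.22, adjusted p = 0.0414). Pool 1 occurs only at 1 month and pool 4 only at 24 months. The block fit thus takes the change from pools 2 and 3 alone. With 1 pool left out the count of called members ran from 1 to 3, and the same 3 were called only without 1-month pool 1. The pool numbers 2 and 3 occur at both ages, but the pools hold different bulls, and their deviations from the age means correlated at -0.18 and 0.04, so the number is not treated as a pairing. Under the block AGPAT2 and DGAT2 gave 1.06 and 1.61.

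The 9 rises among related genes became 4 with the actin covariate, 4 and 2 in the second table with and without normalization, 3 with the replicate block, and 1 to 13 with 1 pool left out. The 0 falls became 2 with quantile normalization and with median centring, 1 without a filter, with the actin covariate and in both readings of the second table, and 0 to 5 with 1 pool left out. Over the whole array the 1854 rises and 659 falls (73.8% rises) became 1390 and 956 with median centring (59.2% rises), 655 and 341 with the actin covariate, 1006 and 635 in the normalized second table, and 658 and 511 without normalization (56.3% rises). They were 114 and 15 with the replicate block, which rests on pools 2 and 3, and the falls 1269 without a filter. With 1 pool left out, rises ran from 432 to 2451 and falls from 94 to 1025, and the fits without a 24-month pool gave the lowest counts.

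Estimates changed sign for ACSL1 (-0.47), PNPLA2 (-2.15), LIPE (0.11) and G0S2 (0.016) with the actin covariate, for G0S2 (0.053) with the replicate block, for PNPLA2 without 1-month pool 1 (-0.028, against up to 1.17 without another pool), and for DGKD (-0.36 and -0.41) in the second table, none of them called there; the cause was not tested. Signal near background limits DGAT1, MOGAT1 and LPIN1. At 1 month it also limits AGPAT2, called absent on all 3 arrays, and DGAT2, called absent in pools 2 and 3.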
